A study of Sus scrofa with 63 samples.

Results

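The 7 genes described here are DPT, ASPN, SCARA5, MYOC, C1QTNF3, AGT and QPCT, secreted and cell surface genes of the dermis that stood lower in sulfur mustard lesions of pig skin than in unexposed skin of the same study. They were picked from measured values, namely the difference between exposed and control sites, so that difference is given below as a description without a test. Each gene is read from the probe set that carries its symbol in the supplied annotation, and for QPCT, which has 3 probe sets, from the brightest one. They are 7 of 6765 genes with a symbol of their own, and 7 of 7 were found on the array. Sulfur mustard is an alkylating agent that blisters skin. Female Yorkshire crossbred (SPF) pigs, of an age not given in the labels, were depilated and received 400 µL of neat agent on the ventral abdomen for 8 min. A template gave 3 cm lesions, and control sites were unexposed skin areas of the same template. Sham animals were prepared for exposure but met no agent. Punches of 8 mm were collected after 1, 2, 4, 24, 48, 72, 168, 336 and 514 h. The design text gives the last time in days, and converted to hours it is slightly earlier. Every one of the 9 times had 3 exposed, 3 control and 1 sham array, 63 in all, by the design text from 4 animals, 3 of which gave both the exposed and the control biopsy. No animal carried a transgene or other treatment by the labels, and each biopsy was whole skin, so fewer cells of a type and less RNA per cell cannot be told apart.

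Dermal fibroblasts make and maintain the collagen network of the skin, and the small proteins that they deposit on collagen fibrils set the width and spacing of the fibrils. In resting dermis these cells also secrete hormone precursors, enzymes and signalling proteins. After injury fibroblasts take on a wound state, in which they make provisional matrix, proteases and their inhibitors, and TGF-beta is the best known signal of that state. DPT encodes dermatopontin, a matrix protein that binds decorin and helps collagen fibrils to form. ASPN encodes asporin, a small leucine-rich protein that binds collagen and TGF-beta. SCARA5 is a scavenger receptor that takes up ferritin. MYOC encodes myocilin, a secreted olfactomedin-domain protein best known from the eye. C1QTNF3 encodes a secreted relative of adiponectin, AGT encodes angiotensinogen, the precursor of the angiotensins, and QPCT encodes glutaminyl cyclase, which closes the first residue of peptides into pyroglutamate.

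Averaged over 1, 2 and 4 h, the differences of the 7 genes between exposed and control sites were -0.18 to 0.27 on the log2 scale. At single times they reached from -0.45 for C1QTNF3 to 0.36 for QPCT, both at 1 h. By 24 h all 7 were below every control array, as 20.6% of all probe sets were, and at 168 h 6 of 7 were, as were 15.3% of all probe sets. The deepest differences were those of C1QTNF3 at 168 h, with -2.92 ± 0.46 (limma estimate and its standard error, 3 exposed and 3 control arrays), and of QPCT at 168 h, with -2.90 ± 0.24. They stand for 7.55-fold and 7.46-fold lower signals. At 514 h the genes had parted: SCARA5, MYOC and AGT were at or near their lowest, QPCT and DPT lay nearer to control skin than at 336 h, C1QTNF3 lay among the control arrays and ASPN was above all of them. The name under which the genes were grouped, genes lost in lesions, therefore holds for ASPN and C1QTNF3 only at earlier times. Values below are log2 signals of 1 probe set, listed in the order of replicates 1 to 3, and are compared only within a gene.

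**Figure D1:**
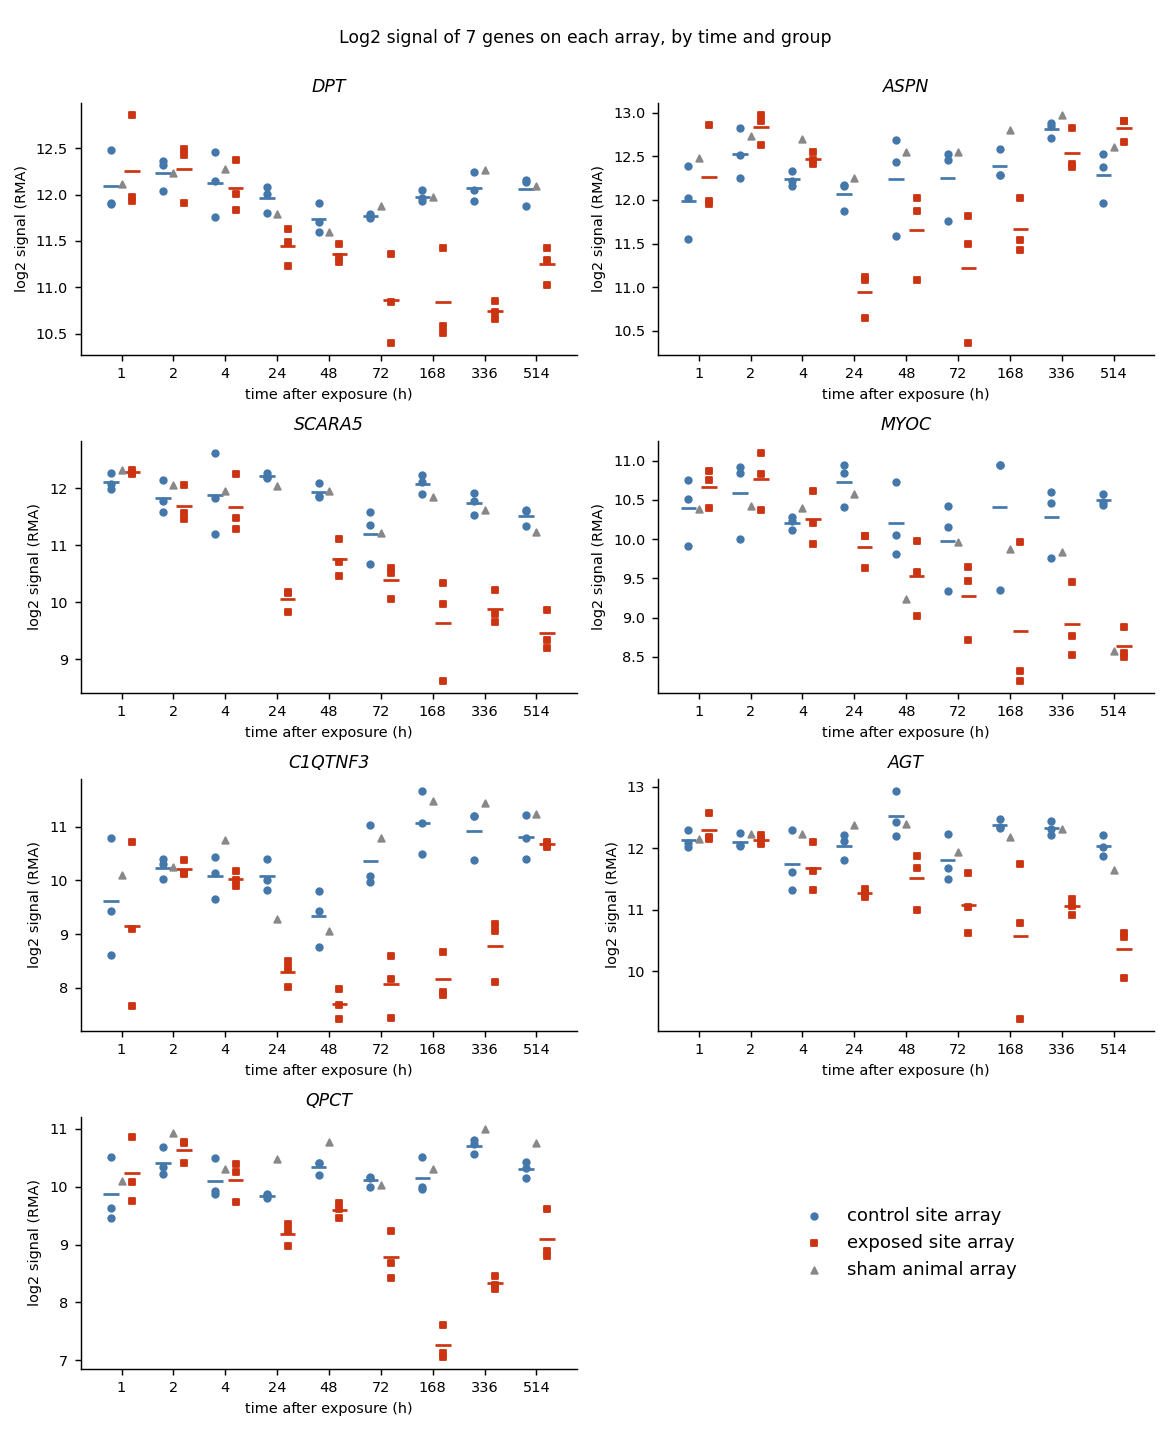
Log2 signal of each of the 7 genes on every array, by time after exposure in hours. Circles are control sites, squares exposed sites and triangles sham animals, and horizontal bars are the means of 3 arrays. Exposed arrays separate from control arrays at 24 h in every panel, and at 514 h the exposed arrays of ASPN lie above and those of C1QTNF3 among the control arrays.

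Of the matrix genes, DPT moved away from control skin slowly and stayed below it. At 24 h the control sites measured 11.81, 12.00 and 12.08 and the exposed sites 11.49, 11.23 and 11.63, a gap of -0.51 ± 0.22. At 72 h the controls lay within 11.75 to 11.80, while the lesions held 10.84, 11.36 and 10.40. The spread among lesions was thus far wider than among controls at that time. At 336 h the controls measured 12.05, 11.93 and 12.25 and the lesions 10.73, 10.66 and 10.85, and the difference of -1.33 ± 0.22, 2.52-fold, was the deepest of the gene. By 514 h the lesions read 11.03, 11.30 and 11.42 against 11.88, 12.16 and 12.14, and the difference was -0.81 ± 0.22. DPT was lower in all 9 pairs of same-numbered exposed and control arrays at 24 to 72 h and in all 9 at 168 to 514 h. Averaged over these windows of 3 times each, the difference was -0.60 ± 0.13 and -1.09 ± 0.13.

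ASPN, the other matrix gene, lay on both sides of the control level. Neither its excess at 4 h nor that at 514 h passed in limma (adjusted p under 0.05). At 4 h the lesions already stood above the controls, with 12.55, 12.45 and 12.41 against 12.21, 12.16 and 12.33, a small gap of 0.23 ± 0.28. At 24 h the order was turned, with lesions at 11.12, 10.65 and 11.08 and controls at 12.16, 12.17 and 11.88. That difference, -1.12 ± 0.28 or 2.17-fold, was the largest of the gene. The groups overlapped at 48 and 72 h, where single lesions reached 12.02 and 11.81 and single controls went down to 11.58 and 11.76. They were apart again at 168 h, at 12.02, 11.54 and 11.43 in lesions against 12.29, 12.59 and 12.28 in controls. At 336 h the difference was -0.28 ± 0.28, with overlap. At 514 h lesions measured 12.90, 12.91 and 12.66, above the controls of 12.38, 11.97 and 12.52, and the difference was 0.53 ± 0.28. Over 168 to 514 h these opposite signs left a mean of -0.16 ± 0.16.

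SCARA5, the receptor among the genes, had the earliest deep difference. At 24 h the controls clustered at 12.26, 12.20 and 12.18, while the lesions measured 10.16, 10.18 and 9.83. This was -2.15 ± 0.30, a 4.45-fold lower signal. Lesions of 11.11, 10.70 and 10.46 at 48 h faced controls of 12.08, 11.85 and 11.86, a difference of -1.17. The difference was -0.81 ± 0.30 at 72 h, with controls of 11.36, 11.59 and 10.67 and lesions of 10.60, 10.51 and 10.06. At 168 h the lesions differed widely, with 8.62, 9.97 and 10.33, but each was far below the controls of 12.23, 12.10 and 11.90. The difference there was -2.44 ± 0.30. At 336 h lesions of 9.66, 9.80 and 10.21 faced controls of 11.54, 11.79 and 11.92. At 514 h lesions of 9.20, 9.33 and 9.87 faced controls of 11.34, 11.62 and 11.60, and the difference was -2.06 ± 0.30, 4.16-fold. At each of the 6 times from 24 h on, no exposed array reached a control array.

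Among the secreted factors, AGT followed a course like that of SCARA5 at lower depth. Control arrays lay at 12.13, 12.21 and 11.80 at 24 h and the lesions at 11.33, 11.26 and 11.21, a difference of -0.78 ± 0.33. At 72 h, 1 lesion of 11.60 was above 1 control of 11.51, the only overlap from 24 h on. The 168 h lesions were the most scattered of the series for AGT, with 9.22, 10.78 and 11.74 against controls of 12.48, 12.33 and 12.35. At 336 h lesions lay close together at 10.92, 11.18 and 11.06, and the controls measured 12.31, 12.45 and 12.21. At 514 h they read 10.56, 9.89 and 10.63 against 12.22, 12.02 and 11.87, and the difference of -1.68 ± 0.33 was near the -1.80 ± 0.33 of 168 h. AGT was lower in all 9 pairs of each later window.

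MYOC varied widely between control arrays, from 9.35 at 72 h to 10.94 at 24 and 168 h. At 24 h lesions of 9.64, 10.03 and 10.05 lay below controls of 10.41, 10.94 and 10.85. The groups overlapped at 48 and 72 h, and again at 168 h, where 1 control of 9.36 fell below 1 lesion of 9.97. At 514 h they were farthest apart, with lesions of 8.50, 8.55 and 8.88 and controls of 10.48, 10.58 and 10.44. This difference of -1.85 ± 0.38, 3.62-fold, was the deepest of the gene. The sham array of that time, however, measured 8.58, within the range of the lesions.

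C1QTNF3 was far below control skin from 24 to 336 h and among the control arrays at 514 h. Each time had its own biopsies, and the 514 h arrays shared no in vitro transcription batch with those of 168 h. Differences between times were not tested. At 24 h lesions of 8.50, 8.02 and 8.37 were below controls of 10.01, 9.82 and 10.41. At 72 h they measured 8.60, 8.17 and 7.44 against 9.98, 10.08 and 11.04. At 168 h they measured 8.67, 7.93 and 7.88 against 10.49, 11.67 and 11.06. The difference was thus -1.78 ± 0.46 at 24 h and -2.92 ± 0.46 at 168 h. At 336 h lesions of 8.11, 9.18 and 9.06 faced controls of 10.38, 11.20 and 11.20, and 2 of the 3 lesions were above all lesions of 168 h. At 514 h the lesions read 10.63, 10.67 and 10.72, inside the control values of 10.40, 10.79 and 11.23, and the difference was -0.13 ± 0.46. At 1 h the arrays of both groups were spread over a range of 7.67 to 10.78, with no separation.

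QPCT, the enzyme, was deepest at 168 h and lay nearer to control skin at 514 h. Controls of 9.87, 9.80 and 9.85 at 24 h faced lesions of 9.23, 8.97 and 9.36. At 72 h lesions of 8.69, 9.23 and 8.41 faced controls of 10.17, 10.00 and 10.15, a difference of -1.33 ± 0.24. At 168 h lesions of 7.05, 7.12 and 7.60 faced controls of 9.99, 10.52 and 9.96. After this low point the lesions stood at 8.30, 8.24 and 8.46 at 336 h, where the controls were at 10.80, 10.56 and 10.73, and at 8.80, 8.89 and 9.62 at 514 h, where the controls were at 10.15, 10.32 and 10.43. The differences were -2.90, -2.37 and -1.20 in turn, each ± 0.24, and no exposed array reached a control array from 24 h on. The other 2 probe sets annotated to QPCT were dim, with means of 5.96 and 5.87 over all arrays against 9.84 for the one used, near the lower end of the array's scale of 4.05 to 14.54. They showed no such difference at 168 to 514 h, with -0.10 ± 0.07 and 0.04 ± 0.07, so the course of QPCT rests on 1 probe set.

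**Figure D2:**
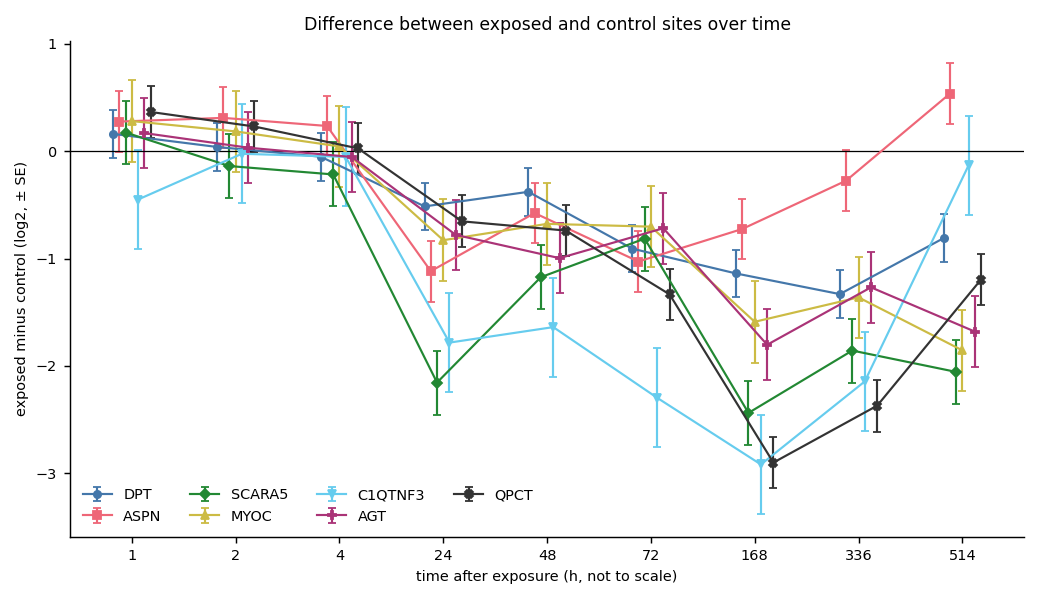
Exposed minus control log2 signal of the 7 genes at each time after exposure, with the standard error from the limma fit (3 exposed and 3 control arrays per point, times not to scale). At 24 h SCARA5 has the lowest difference of the 7, C1QTNF3 and QPCT are lowest at 168 h, and at 514 h the genes range from 0.53 for ASPN to -2.06 for SCARA5.

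The counts that go with these values describe the choice of the genes and support nothing further. In the fit over all 23999 probe sets (limma, Benjamini-Hochberg threshold 0.05), 0 of 7 genes passed as lower at 1 to 4 h, where 3.41% of all probe sets did. At 24 to 72 h 7 of 7 passed as lower, against 16.9% of all probe sets, and at 168 to 514 h 6 of 7 did, against 9.88%, ASPN being the exception. By time, the genes passing as lower were 4 at 24 h against 12.7% of all probe sets, 4 at 48 h against 4.11%, 4 at 72 h against 4.25%, 6 at 168 h against 8.06%, 6 at 336 h against 1.66% and 5 at 514 h against 2.13%. The genes with every exposed array under every control array were 7 at 24 h against 20.6% of probe sets, 5 at 48 h against 11.1%, 4 at 72 h against 12.7%, 6 at 168 h against 15.3%, 6 at 336 h against 11.6% and 5 at 514 h against 14.1%. ASPN was above every control array at 4 h, as 5.52% of probe sets were, and at 514 h, as 15.3% were. The median difference of the 7 genes was 0.05 at 1 to 4 h, -0.91 at 24 to 72 h and -1.60 at 168 to 514 h, and that of all probe sets was -0.00544, -0.00315 and -4.33e-05.

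Sham animals, which the choice of the genes did not use, differed from control skin by -0.45 to 0.32 on average in these genes. With 9 sham against 27 control arrays, none of the 7 genes passed the threshold in limma, and 5 of 23999 probe sets did, or 0.0208% (2168 had an unadjusted p under 0.05). SCARA5 differed by -0.03 ± 0.14 (adjusted p = 0.973), DPT by 0.02 ± 0.10 (adjusted p = 0.976) and AGT by 0.04 ± 0.15 (adjusted p = 0.968). The 95% intervals of these differences were -0.32 to 0.25, -0.19 to 0.23 and -0.27 to 0.36. QPCT was 0.32 ± 0.11 higher in sham skin (95% interval 0.09 to 0.55, adjusted p = 0.474), ASPN 0.32 ± 0.13 higher (0.05 to 0.59, adjusted p = 0.505), and C1QTNF3 0.21 ± 0.22 higher (-0.23 to 0.65, adjusted p = 0.826). MYOC was the gene with the lowest sham values relative to controls, by -0.45 ± 0.18 (-0.81 to -0.08, adjusted p = 0.503), and at 514 h its sham array differed from the mean of the controls by -1.92.

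Comparisons of sham arrays with lesions use the same lesion arrays that chose the genes, so they are descriptions and no separate support. Array by array, the sham value of DPT, SCARA5, C1QTNF3, AGT and QPCT was above all 3 lesions at 6 of the 6 times from 24 h on. QPCT in sham skin read 10.48, 10.77, 10.03, 10.31, 11.01 and 10.76 at these times, and the highest lesion of any of them was 9.72. SCARA5 in sham skin read 12.05, 11.94, 11.22, 11.84, 11.61 and 11.24, and the highest lesion was 11.11. Both genes therefore had no overlap between sham and exposed arrays even across times. For ASPN the sham array was above the lesions at 5 of 6 times, 514 h being the exception with 12.60 in sham skin and 12.66 in the lowest lesion. For MYOC it was above them at 3 of 6 times, and sham values of 9.23 at 48 h and 8.58 at 514 h lay among the lesions. Set against sham skin in place of control sites, MYOC differed by -0.36 at 24 to 72 h and -0.63 at 168 to 514 h, where the differences from control sites were -0.74 and -1.60. In neither window did MYOC pass the threshold against sham skin (limma adjusted p = 0.451 and 0.207). The skeletal muscle markers of the sham arrays, described with the marker lists below, were also low at these times. Late control arrays with a mean muscle marker signal of 6.90, 6.88, 7.03 and 6.82 measured MYOC at 10.94, 9.36, 9.76 and 10.44. The part of muscle content in the sham values of MYOC was not tested.

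Control sites give the level of the genes in unexposed skin over the 9 times. None of the 7 passed the threshold between windows in limma, while 363 probe sets (1.51%) did for 24 to 72 h against 1 to 4 h and 376 (1.57%) for 168 to 514 h against 1 to 4 h. C1QTNF3 came nearest, at 10.94 ± 0.45 (SD, n = 9) in control skin of 168 to 514 h and 9.98 ± 0.65 (SD, n = 9) at 1 to 4 h, a difference of 0.96 ± 0.27 (adjusted p = 0.051). Its 3 lowest control values, 8.62 at 1 h, 8.77 at 48 h and 9.43 at 1 h, were all from the first 48 h. Leaving out control replicate 1 of 1 h moved this difference to 1.16 and past the threshold (adjusted p = 0.013), and it also passed without control replicate 2 of 4 h (1.02, adjusted p = 0.0415), replicate 1 of 336 h (1.05, adjusted p = 0.0445) or replicate 1 of 514 h (1.03, adjusted p = 0.0394). DPT was 0.33 ± 0.13 lower in control skin at 24 to 72 h than at 1 to 4 h (adjusted p = 0.191). QPCT, AGT and ASPN differed by 0.26 ± 0.14, 0.25 ± 0.19 and 0.25 ± 0.16 between the last and the first window (adjusted p = 0.384, 0.572 and 0.508).

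Histology in the labels covers 2 sets of scores, one for 1 to 72 h and one from 168 h on. Dermal necrosis, scored in the first set only, was 0 in all lesions at 1 and 2 h, 1 in all 3 lesions at 4 h and 4 in all 9 lesions of 24 to 72 h, the first times at which all 7 genes were below control skin. It was 0 in every control and sham biopsy. Since it did not vary among lesions of a time, it could not be related to the genes within a time, and its part in their differences cannot be told apart from exposure and time. Collagen orientation and fibroplasia were scored in the second set only. Collagen orientation was 3 in every control and sham biopsy of these times. In lesions it was 0, 0 and 2 at 168 h, 1, 1 and 3 at 336 h and 1, 1 and 1 at 514 h. Only replicate 3, which had another sacrifice day than the other two, scored above 1. Fibroplasia was 1 in every control and sham biopsy, all of which had the normal total of 13. A score of 1 thus stood for normal skin and 0 for a departure from it. Lesions scored 1, 1 and 1 at 168 h, 1, 1 and 1 at 336 h and 0, 0 and 1 at 514 h. The fibroplasia score varied at 514 h alone, in 1 lesion against 2, so no test was made. The total score, for which the labels give 13 as normal, was 6, 6 and 9 at 168 h, 5, 6 and 10 at 336 h and 6, 7 and 9 at 514 h.

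Within the 9 lesions, and with time in the model, higher collagen orientation went with higher DPT by 0.26 ± 0.08 per step of the score (limma adjusted p = 0.385), which did not pass the threshold. At 168 h the lesion with score 2 held DPT at 11.42 and the 2 lesions with score 0 at 10.51 and 10.59. At 336 h the lesion with score 3 held 10.85 and those with score 1 held 10.73 and 10.66. The lesion of higher score was thus the highest for DPT at both times, by a wide gap at 168 h and a narrow one at 336 h. SCARA5 had a slope of 0.38 ± 0.17 (adjusted p = 0.535), AGT of 0.44 ± 0.24 (adjusted p = 0.624), MYOC of 0.37 ± 0.20 (adjusted p = 0.613) and QPCT of 0.18 ± 0.10 (adjusted p = 0.660). The highest AGT, SCARA5, MYOC and QPCT values of the 168 h lesions, 11.74, 10.33, 9.97 and 7.60, all came from the lesion with score 2. At 336 h the lesion with score 3 was the highest for SCARA5 (10.21) and QPCT (8.46), but not for AGT, with 11.06 against 11.18 in another lesion, nor for MYOC, with 8.77 against 9.45. ASPN sloped the other way, by -0.13 ± 0.08 (adjusted p = 0.684), and C1QTNF3 by -0.00124 ± 0.16 (adjusted p = 0.999). No probe set of 23999 (0%) passed this test in limma, and 2257 had an unadjusted p under 0.05. Leaving out the 168 h lesion with score 2 took the DPT slope to 0.08, the AGT slope to 0.00715, the SCARA5 slope to 0.24, the QPCT slope to 0.09 and the MYOC slope to -0.11, and 118 probe sets then passed. Without the 336 h lesion with score 3 the slopes were 0.44 for DPT, 0.87 for AGT, 0.86 for MYOC, 0.52 for SCARA5 and 0.26 for QPCT, and 33 probe sets passed. Without the 168 h lesion of replicate 1 the AGT slope was 0.21 and that of SCARA5 0.22. The lesions with scores 2 and 3 were also each alone among the lesions of their time in their in vitro transcription batch, so score, replicate number, sacrifice day and that batch cannot be told apart. Of the 514 h lesions, replicate 3 alone had a fibroplasia score of 1, the score of control skin. That lesion had the highest DPT (11.42), SCARA5 (9.87), MYOC (8.88), C1QTNF3 (10.72), AGT (10.63) and QPCT (9.62) and the lowest ASPN (12.66). Its lead was wide for QPCT (next 8.89) and narrow for AGT (next 10.56) and C1QTNF3 (next 10.67). It also had another sacrifice day than the other lesions of 514 h, so score and day cannot be told apart.

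**Figure D3:**
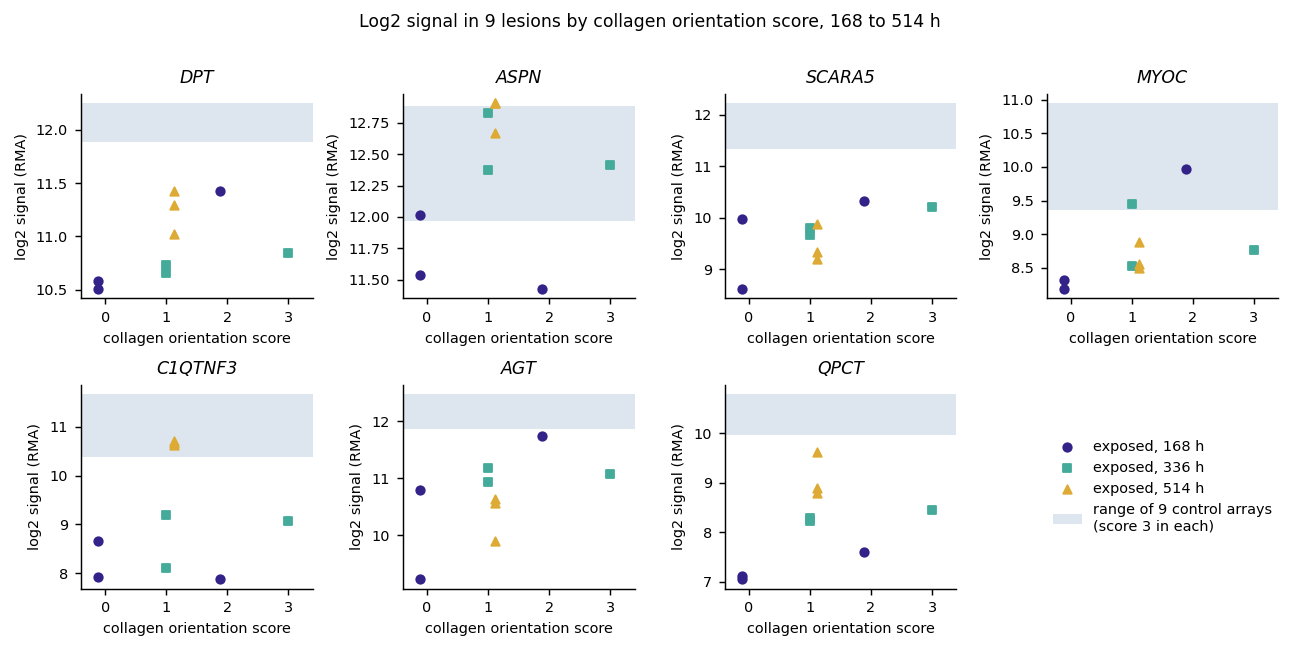
Log2 signal of the 7 genes in the 9 lesions of 168, 336 and 514 h against the collagen orientation score of the same lesion, with points of a time shifted sideways for legibility. The shaded band is the range of the 9 control arrays of these times, each scored 3. The lesion scored 2 at 168 h is the highest of its time for DPT, SCARA5, MYOC, AGT and QPCT and the lowest for ASPN and C1QTNF3.

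Punches differed in how much skeletal muscle they held, and the mean muscle signal differed between the groups, though few of its genes passed the threshold. None of the 17 measured passed at 1 to 4 h or 24 to 72 h. In the last window 2 fell and none rose, beside 9.88% of all probe sets lower and 12% higher. The mean log2 signal of 17 measured skeletal muscle genes, out of 24 listed, averaged 11.5 in exposed and 10.9 in control arrays at 1 to 4 h, 9.78 and 11.6 at 24 to 72 h, and 7.88 and 9.94 at 168 to 514 h. In sham arrays it lay between 7.35 and 9.19 at 24 to 72 h and between 6.80 and 6.95 at 168 to 514 h. At 168 h it was 6.72 to 6.90 on all arrays but 1, control replicate 3, which had 13.3. Without that array, a choice made after seeing the data, the differences at 168 h were -1.16 for DPT, -0.78 for ASPN, -2.52 for SCARA5, -1.33 for MYOC, -2.92 for C1QTNF3, -1.82 for AGT and -2.997 for QPCT. With all arrays MYOC had -1.59. The part of muscle content in the differences of the 7 genes was not tested. In the 27 control arrays alone, with time in the model, MYOC was higher by 0.10 ± 0.04 per log2 unit of the muscle score (adjusted p = 0.126), and C1QTNF3 was lower by -0.12 ± 0.04 (adjusted p = 0.105) and DPT by -0.05 ± 0.02 (adjusted p = 0.0789). None of the 7 passed this test, while 1247 probe sets (5.2%) did. Without control replicate 1 of 168 h, MYOC and C1QTNF3 passed it, with 0.12 (adjusted p = 0.0418) and -0.14 (adjusted p = 0.0327), and DPT passed it after repeated quantile normalization, with -0.06 (adjusted p = 0.0194).

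Markers of other skin cells also differed between windows. Of all probe sets, 18.2% passed as higher and 16.9% as lower at 24 to 72 h. The shares were 12% and 9.88% at 168 to 514 h. Of the neutrophil and macrophage markers 12 of 15 rose at 24 to 72 h, with a median of 1.27, and 14 of 15 rose at 168 to 514 h, with a median of 0.78. Their mean signal at 168 to 514 h was 9.84 to 10.84 in lesions and 8.84 to 10.10 in controls. Within a time the groups were apart at 168 h, with 10.33 to 10.84 against 8.84 to 9.00. They were also apart at 336 h, with 9.94 to 10.44 against 9.24 to 9.41, and overlapped at 514 h. Adipocyte markers were a second list that went with the late differences of the 7 genes. None of 10 passed at 24 to 72 h, and at 168 to 514 h 9 of 10 fell, with a median of -0.58. The mean adipocyte signal was 9.57 to 10.36 in late lesions and 9.78 to 10.81 in late controls, which overlapped only across times. At each late time every lesion was below every control, with 9.74 to 10.36 against 10.47 to 10.81 at 168 h. The ranges were 9.93 to 10.24 against 10.58 to 10.76 at 336 h and 9.57 to 9.68 against 9.78 to 10.46 at 514 h. Keratinocyte markers fell in 8 of 9 cases at 24 to 72 h, while at 168 to 514 h 2 rose and 6 fell. Of 7 smooth muscle and pericyte markers 3 fell and none rose at 24 to 72 h. In the later window 2 rose and 1 fell, and the fallen one is near the share of all probe sets. Of 10 endothelial markers 2 rose and 2 fell, near the shares of all probe sets, and later 2 rose and none fell. The part of these cell types in the differences of the 7 genes was not tested. As for the labelled tissue, the keratinocyte markers that define skin averaged 11.1 to 12.6 on control arrays.

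**Figure D4:**
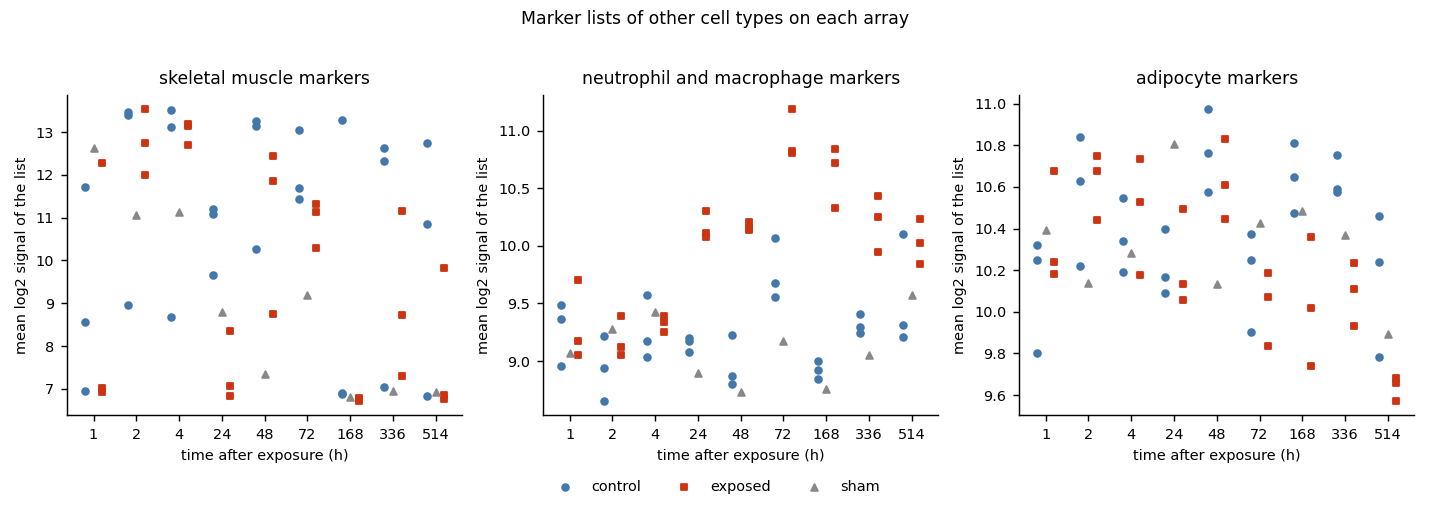
Mean log2 signal of the skeletal muscle, neutrophil and macrophage, and adipocyte marker lists on every array, by time after exposure in hours. Circles are control sites, squares exposed sites and triangles sham animals. Muscle signal scatters widely among control arrays at most times. Neutrophil and macrophage signal separates exposed from control arrays at 24, 48, 72, 168 and 336 h. Adipocyte signal of every lesion is below that of every control array of the same time from 168 h on.

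Other genes of resident fibroblasts and their matrix, from a list that was drawn up with earlier results of these data known, did not all share the course of the 7 genes. Of 54 listed genes 34 were measured. None passed at 1 to 4 h, where 3.41% of all probe sets were called lower and 2.07% higher. At 24 to 72 h 13 fell and 5 rose with a median of -0.08, beside 16.9% of all probe sets lower and 18.2% higher. At 168 to 514 h 17 fell and 6 rose with a median of -0.25, beside 9.88% lower and 12% higher. CLEC3B, which encodes the plasminogen-binding protein tetranectin, fell by 0.77 ± 0.15 at 24 to 72 h and by 1.12 ± 0.15 at 168 to 514 h (limma adjusted p = 7.46e-05 and 4.04e-07). TNXB, whose product tenascin-X lines collagen fibrils, fell by 1.36 ± 0.15 in the later window (limma adjusted p = 6.56e-09), and COL1A2, a chain of type I collagen, by 1.01 ± 0.24 (limma adjusted p = 0.00194). COL5A1, a chain of the fibril-starting type V collagen, fell by 0.75 ± 0.11 at 24 to 72 h. Its smallest change under the alternatives listed below was -0.26, and the call was kept in each. CILP fell by 0.69 ± 0.22 then, a call that was lost against sham arrays (-0.56, adjusted p = 0.19). Against these, FBLN1, which encodes fibulin 1, rose by 0.69 ± 0.12 at 24 to 72 h, and DPP4, a cell surface peptidase, rose by 1.75 ± 0.17 at 168 to 514 h. In the later window DCN, which encodes decorin, fell by 0.29, and LUM at -0.06 and COL3A1 at -0.05 did not pass.

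Wound fibroblast genes moved in both directions in the same lesions. Of 17 measured, 6 rose and 5 fell at 24 to 72 h with a median of 0.08, beside 18.2% of all probe sets higher and 16.9% lower. At 168 to 514 h 7 rose and 2 fell with a median of 0.23, beside 12% higher and 9.88% lower. TNC, which encodes tenascin-C of the provisional matrix, rose by 3.45 ± 0.23 and then 2.71 ± 0.23. MMP1, an interstitial collagenase, rose by 2.85 ± 0.33 and then 3.91 ± 0.33, and its inhibitor gene TIMP1 by 2.06 ± 0.13 and then 1.14 ± 0.13. THBS1, a matrix protein that activates latent TGF-beta, rose by 1.77 ± 0.19 and 1.23 ± 0.19. In all 4 of these, 9 of 9 pairs were higher in both windows. FN1, the gene of fibronectin, fell by 0.44 at 24 to 72 h and did not pass at -0.18 later.

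DPT and ASPN products both bind TGF-beta, and 8 of 19 listed genes of that pathway were measured. At 24 to 72 h 3 rose and 2 fell, beside 18.2% of all probe sets higher and 16.9% lower, and at 168 to 514 h 2 rose and 2 fell, beside 12% higher and 9.88% lower. The ligand gene TGFB1 rose by 0.59 ± 0.10 and 1.10 ± 0.10, while TGFB2 fell by 0.91 ± 0.12 and 0.64 ± 0.12. SMAD3, which carries the signal to the nucleus, rose by 0.74 ± 0.12 at 24 to 72 h. Its later value of 0.19 did not pass, and the difference between the windows was not tested. TGFB3 fell by 0.29 ± 0.08 and later rose by 0.29 ± 0.08, and BMP4 fell by 0.57 ± 0.11 in the later window. Against sham arrays the TGFB3 call was lost in both windows (adjusted p = 0.103 and 0.251) and that of BMP4 in the later one (adjusted p = 0.0502), and with the mean of all probe sets the early TGFB3 call was lost too (adjusted p = 0.0915).

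AGT belongs to the renin-angiotensin system, of which 6 of 15 other listed genes were measured. At 24 to 72 h 1 rose and 2 fell, beside 18.2% of all probe sets higher and 16.9% lower, and at 168 to 514 h 1 rose and 3 fell, beside 12% higher and 9.88% lower. AGTR1, the receptor for angiotensin II, fell by 0.35 ± 0.10 at 24 to 72 h and by 0.90 ± 0.10 at 168 to 514 h (limma adjusted p = 0.00662 and 1.49e-08), in 9 of 9 pairs of the later window. Precursor and receptor genes were thus both lower in late lesions. PREP, a peptidase, fell by 0.53 ± 0.11 and 0.60 ± 0.11, ACE, the enzyme that makes angiotensin II, fell by 0.18 ± 0.05 in the later window, and ATP6AP2, the prorenin receptor, rose by 0.41 ± 0.06 and 0.30 ± 0.06. The later calls of PREP, ACE and ATP6AP2 were lost against sham arrays (adjusted p = 0.0545, 0.058 and 0.0631), and that of AGTR1 was kept.

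Relatives of the 7 genes in sequence took other courses. Of 22 listed 9 were measured, of which 3 rose and 1 fell at 24 to 72 h, beside 18.2% of all probe sets higher and 16.9% lower, and 3 rose and 3 fell at 168 to 514 h, beside 12% higher and 9.88% lower. C1QTNF6 fell by 0.66 ± 0.16 and 0.55 ± 0.16 and C1QTNF2 by 0.60 ± 0.10 in the later window, while C1QTNF5 rose by 0.64 ± 0.09 and 0.54. ADIPOQ, the adiponectin gene, fell by 0.59 ± 0.21 in the later window (limma adjusted p = 0.0373), a call that was lost against sham arrays (adjusted p = 0.561) and, for example, without exposed replicate 2 of 336 h (adjusted p = 0.0867). QPCTL, the Golgi form of glutaminyl cyclase, rose by 0.42 ± 0.06 and 0.23, opposite to QPCT. CD163, a scavenger receptor of macrophages, rose by 1.60 ± 0.22 and 0.78 ± 0.22, and the later call was lost against sham arrays (adjusted p = 0.0928).

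**Figure D5:**
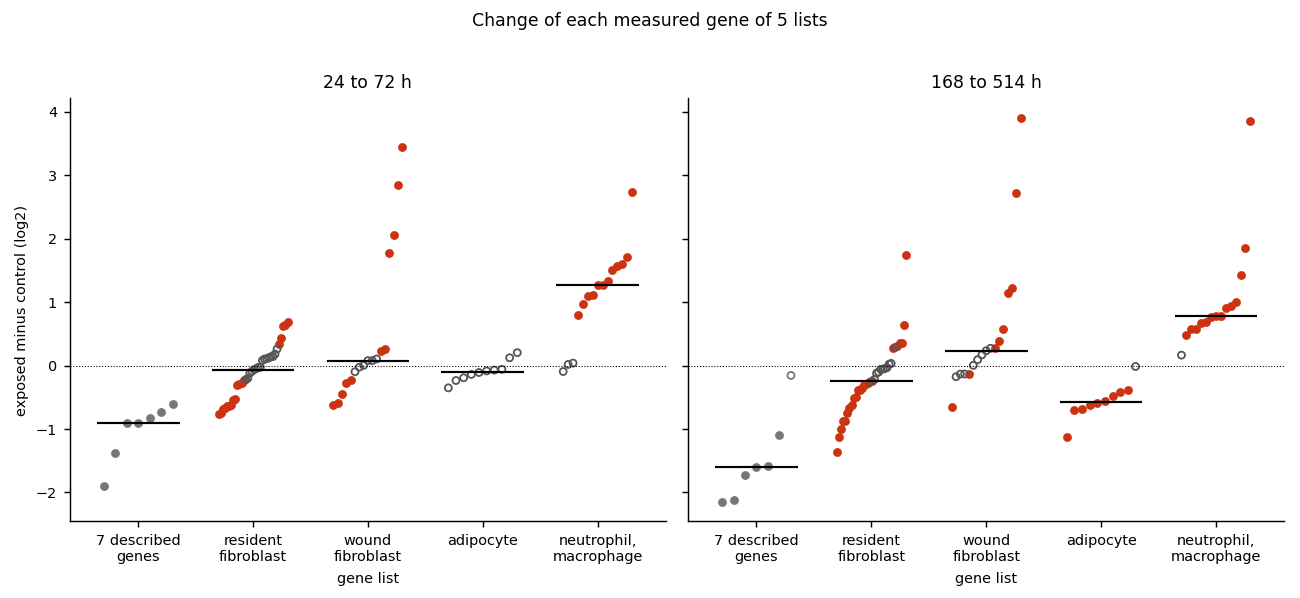
Exposed minus control log2 change of each measured gene of 5 lists, at 24 to 72 h and 168 to 514 h, with 9 exposed and 9 control arrays per window. Filled points passed the limma threshold, open points did not, and lines are list medians. The 7 described genes are drawn in grey, since they were chosen by this difference. Their medians of -0.91 and -1.60 follow from that choice.

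Over the 27 group means, SCARA5 and AGT were the pair with the highest correlation among the 7 genes (r = 0.93), followed by DPT and QPCT (r = 0.85). ASPN and MYOC had the lowest (r = 0.12), and MYOC and C1QTNF3 the next (r = 0.24). The same pairs stood apart in the 54 residuals of exposed and control arrays around their group means, with r of 0.67 for SCARA5 and AGT, 0.72 for DPT and QPCT, -0.41 for ASPN and MYOC and -0.45 for MYOC and C1QTNF3. ASPN and C1QTNF3 had r = 0.77 over means and 0.59 over residuals. These points share arrays and punches, including the muscle content of each punch, and the values are descriptions. Of 6758 other genes, PDGFRL, a receptor-like relative of the PDGF receptors, had the course most like the mean of the 7 genes (r = 0.96 over 27 group means), then FAM46A (r = 0.93), CCDC80 (r = 0.89), CLEC3B (r = 0.88), ITIH5 (r = 0.88), CYP27A1 (r = 0.88), BEND6 (r = 0.86) and DST (r = 0.85). PDGFRL differed between exposed and control sites by -1.09 ± 0.13 at 24 to 72 h and -1.23 ± 0.13 at 168 to 514 h. Gene by gene, the nearest courses were those of PDGFRL for DPT (r = 0.92), FN1 for ASPN (r = 0.91), DST for SCARA5 (r = 0.90), FHL1 for MYOC (r = 0.81), CHRNA1 for C1QTNF3 (r = 0.91), KLF9 for AGT (r = 0.89) and FAM46A for QPCT (r = 0.91). MYOC thus had the least close neighbour. PSAT1, second for ASPN (r = 0.89), also went from below control skin at 168 h (-1.17) to above it at 514 h (0.33).

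In vitro transcription, the step that labels the RNA, was run in 5 batches by its date in the labels, and at 24, 168 and 336 h each of 2 batches held both exposed and control arrays. Within these batches the differences had the sign of the pooled ones in every case. They ran over 6 values from -1.44 to -0.38 for DPT, -1.13 to -0.11 for ASPN, -2.71 to -1.64 for SCARA5, -1.89 to -0.80 for MYOC, -3.07 to -1.45 for C1QTNF3, -2.33 to -0.67 for AGT and -3.15 to -0.44 for QPCT. At 1 h, where 1 batch held 3 exposed and 2 control arrays, C1QTNF3 differed by 0.14 in that batch and by -0.45 over all arrays. The other genes kept their sign there. Processing fell into 3 periods by the dates in the labels, each with 1 time from every window. Windows are therefore balanced over periods, and single times are not.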

How the data were processed

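RNA of each punch was hybridized to 1 GeneChip Porcine Genome array (Affymetrix). The deposited values are on the log2 scale: the authors summarised probe sets with RMA, per the submitters' processing notes, which also name Partek and give no version of either. RMA compresses differences of dim probe sets. Medians of the arrays lay between 7.75 and 7.86, and nothing was rescaled. An array has no read depth, so the number of arrays limits the precision.

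Of 24123 probe sets 124 controls were left out. The supplied annotation listed 10297, of which 10099 had 1 symbol and 198 several. A gene with several probe sets was read from the one with the highest mean over 63 arrays. One model (limma 3.58.1 and R 4.3.3, with data.table in version 1.17.8) gave each group a mean over all arrays (36 residual and 3.24 prior degrees of freedom). Benjamini-Hochberg adjustment ran over 23999 probe sets, two-sided, with a threshold of 0.05. Sham groups of 1 array are assumed to vary like the other groups, and sites of 1 animal are taken as independent. Collagen orientation (9 lesions) and the muscle score (27 controls) had fits of their own, with time as a factor. The code was tested on simulated data.

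The genes and lists were chosen with earlier results of these data known. Named list genes are up to 4 per list and window with the largest change past the threshold, and any others are examples chosen after their values were seen. Likeness was ranked by Pearson's r over 27 group means. Alternatives were the muscle score or transcription batch as a covariate, repeated quantile normalization, the replicate block, the mean of all probe sets, leaving out probe sets with a mean under 6, a robust prior with trend, single windows, sham arrays as the reference, and leaving out each array in turn.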

Additional observations from a re-analysis of the deposited data

Results flagged for a closer look

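Several genes were above control skin in all 3 pairs of same-numbered arrays at an early or late time, though below it in all 3 pairs at other times. At 1 h this held for DPT with 0.16, SCARA5 with 0.17, MYOC with 0.28, AGT with 0.17 and QPCT with 0.36 on the log2 scale, and at 2 h for QPCT with 0.23 and ASPN with 0.31. For ASPN it also held at 4 h with 0.23 and at 514 h with 0.53. The difference between these times and the others was not tested.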

How the results depend on the processing

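Among recomputed counts and medians that answer a comparison, 463 stayed within 1.5 times the reported value, or within the spread between pairs, and 33 moved. Of the values of single genes and smaller counts, 2349 were the same, 48 moved, 8 passed the threshold only in the alternative and 21 lost it. No value past the threshold was reversed. The 7 genes passing as lower were 6 to 7 at 24 to 72 h and 5 to 6 at 168 to 514 h under all alternatives run. Against sham arrays the probe sets called went from 1315 to 355 at 1 to 4 h and from 5262 to 2633 at 168 to 514 h, and the median of the 7 genes at 24 to 72 h from -0.91 to -1.17; a sham group has 1 array a time. Fitting only the arrays of 1 to 4 h gave 815 calls. With the muscle score as a covariate, sham minus control had 2 calls in place of 5, and control sites 688 in place of 363 between 24 to 72 h and 1 to 4 h. With it, MYOC differed from controls by -0.56 and -1.41 in the later windows.

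Leaving out each array in turn gave 2 to 5 calls for sham minus control, lowest without the sham array of 4 h or 48 h, 155 to 424 for control sites at 24 to 72 h, lowest without control replicate 1 of 2 h, 116 to 578 for control sites at 168 to 514 h (reported 376), lowest without control replicate 3 of 1 h and highest without replicate 3 of 168 h, 0 to 118 for collagen orientation, highest without the 168 h lesion of replicate 3, and 692 to 1358 for the muscle score (reported 1247), lowest without control replicate 2 of 4 h. Resident fibroblast genes that fell at 1 to 4 h numbered 0 to 1. The cause of these shifts was not tested. The ADIPOQ call at 168 to 514 h was lost when any of 10 arrays was left out. With the mean of all 3 probe sets, QPCT differed by -0.32 at 24 to 72 h and -0.74 at 168 to 514 h, since 2 of them are dim.

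Same-numbered exposed and control arrays shared a sacrifice day, but the labels do not say that the number marks an animal. Residuals of the 27 pairs correlated with a mean r of 0.27, 21 with r over 0.1, and 20 exposed arrays correlated best with their own number. With the replicate block, 1859, 9455 and 6416 probe sets were called in the 3 windows in place of 1315, 8432 and 5262, and 20 resident fibroblast genes fell at 168 to 514 h in place of 17. The differences of the 7 genes were the same with and without the block, as the pairs are balanced.

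The number of arrays and the compression of dim signals limit what can be seen, and fewer fibroblasts and less RNA per fibroblast give the same signal.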

Other observations

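KLF9, a transcription factor gene that glucocorticoids induce, was the gene nearest to AGT in course and differed between exposed and control sites by -0.59 ± 0.11 at 24 to 72 h and -0.81 ± 0.11 at 168 to 514 h. Its difference was -0.94 at 168 h and -0.998 at 514 h. ITIH5, which encodes a hyaluronan-binding protein, differed by -1.02 ± 0.13 and -1.10 ± 0.13 in these windows. CCDC80, a matrix protein gene, differed by -0.55 ± 0.13 and -0.95 ± 0.13. NREP, another gene near ASPN in course (r = 0.85 over 27 group means), went from -1.94 at 168 h to 0.13 at 514 h. CHRNA1, a muscle acetylcholine receptor gene whose course was nearest to C1QTNF3, differed by -0.88 at 168 h and -0.25 at 514 h. These genes were singled out by likeness to the 7, which were themselves chosen by this difference, so the values are descriptions.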
